A study of Rattus norvegicus with 20 samples.

Results

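Expression of 10 genes that encode subunits of the neuronal BAF chromatin remodelling complex was followed in the medial prefrontal cortex (mPFC) of rats given LSD or saline. They were Dpf1, Dpf2, Dpf3, Actl6a, Actl6b, Smarca2, Smarca4, Smarcc2, Ss18l1 and Arid1b, matched by symbol, and they are 10 of the 31038 named genes in the table of read counts. The set was picked on the comparison of LSD with saline itself, because Dpf1 was among the strongest decreases there. Values of the 10 genes in that comparison are therefore a description and carry no test, and only the relations between genes within a treatment group are independent of the choice. All 10 were among the 16605 genes that reached 5 reads in no fewer than 10 rats.

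Polyadenylated RNA was sequenced from the mPFC of 20 male Sprague-Dawley rats, 10 per treatment, with 1 library per rat. Rats were 6 to 8 weeks old when treatment began and were housed singly. One group received LSD, a serotonergic psychedelic, at 0.16 mg/kg by intraperitoneal injection on alternate days over 90 days, and the other received sterile saline on the same schedule. Per the labels, tissue was taken after a drug-free period of 3 weeks, so the comparison asks what persisted after treatment rather than what an acute dose does. The methods of the study give a longer drug-free period and older rats than the labels, and the values here are those of the labels.

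BAF, the mammalian SWI/SNF complex, uses the energy of ATP to slide or evict nucleosomes and so changes which stretches of DNA can be reached by transcription factors. It is built around 1 ATPase, and several of its other positions can each be filled by alternative, related subunits. When neural progenitors leave the cell cycle and become neurons, the progenitor versions of some subunits are exchanged for neuronal ones: ACTL6A gives way to ACTL6B, SS18 to SS18L1 (CREST), and a DPF2- or PHF10-containing form to one with DPF1 or DPF3. Mature cortical neurons keep the neuronal form, which has been linked to dendrite growth and to transcription that follows synaptic activity, and variants in several of its genes cause neurodevelopmental disorders.

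The libraries held 16346629 to 25552681 reads on genes in LSD-treated rats (median 20271086) and 11098076 to 24201351 in controls (median 16815424). Long genes took a larger share of the reads in LSD libraries than in most controls. The rank correlation, across genes, between a rat's deviation from the mean and the genomic span of the gene lay between 0.0743 and 0.291 in LSD-treated rats and between -0.434 and 0.113 in controls, and control 9 held the lowest value. The 10 genes differ widely in span, so each fold change is given below with and without a correction for it. Neuronal markers summed to 7528 to 9041 RPM (reads scaled by library size with TMM, edgeR's trimmed mean of M-values) in LSD-treated rats and to 7447 to 9442 in controls. In the same units, astrocyte markers summed to 2121 to 2808 against 1966 to 2725, oligodendrocyte markers to 2232 to 5761 against 2195 to 7479, and markers of neural progenitors to 44.9 to 61.6 against 45.4 to 68.6. Sox2 made up most of the progenitor sum (means of 43.0 RPM after LSD and 52.4 in controls). The next highest, Eomes, had means of 4.50 and 3.20, so the sum follows Sox2 and does not measure progenitors. All 6 oligodendrocyte markers had negative fold changes (median log2 of -0.35) and none passed the edgeR test (3 had an unadjusted p below 0.05). Of 8 neuronal markers Map2 rose and Tubb3 fell, of 6 astrocyte markers Slc1a2 rose, of 4 markers of oligodendrocyte precursors Olig1 fell, and of 5 tested progenitor markers Sox2 fell (quasi-likelihood F test in edgeR, Benjamini-Hochberg adjusted p below 0.05). With the span correction, Map2, Tubb3, Slc1a2 and Olig1 were not called (adjusted p of 0.0732, 0.0542, 0.0776 and 0.120 in edgeR), Sox2 was (0.0452), and the neuronal marker Rbfox3 was called lower (-0.31, adjusted p = 0.0254). Of 6 microglial markers and 5 markers of blood vessels (Cldn5, Flt1, Pecam1, Pdgfrb and Rgs5) 0 were called in either fit. At an unadjusted p below 0.05 without the span correction there were 0 and 3, the latter 2 lower and 1 higher. The part of cell composition in the values below was not tested, and in bulk tissue fewer cells of a type and less RNA per cell cannot be told apart.

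Of the 10 genes, 2 were called lower after LSD and 0 were called higher (edgeR; DESeq2 also gave 0 higher). Across all 16605 genes tested, 8.54% were called lower and 6.48% higher, and nothing is read from the count of members because the choice used this comparison. Dpf1 and Actl6b, which mark the neuronal form of the complex, were the pair called lower. Negative fold changes were found for 8 of the 10, with a median log2 fold change of -0.08 against 0.00 over all genes tested. After the correction for gene span, under which 6.67% of all genes were called lower and 3.42% higher, the same counts of 2 and 0 were found and the median was -0.11 against -0.01 over all genes.

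**Figure D1:**
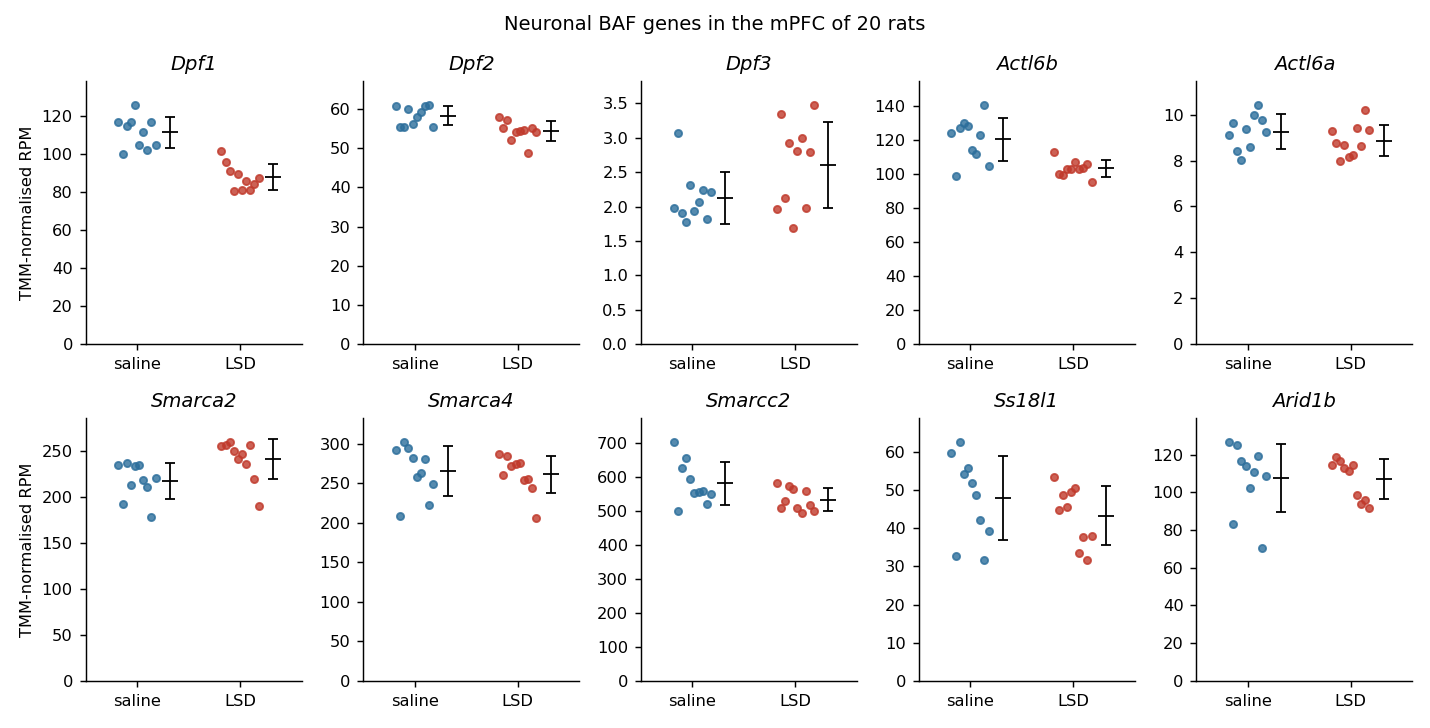
Normalised RPM (y axis, from 0) of the 10 neuronal BAF genes in each of the 10 saline (blue) and 10 LSD (red) rats, with the mean and SD of each group as a bar. Dpf1 shows the cleanest separation, with 9 of 10 LSD-treated rats below the lowest control, whereas the clouds of Smarca4, Arid1b and Actl6a lie over each other.

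Dpf1 encodes a double PHD finger protein (BAF45B) whose PHD fingers bind histone tails, and it is expressed mainly in neurons. Its RPM ran from 80.4 to 101.9 (median 86.8) after LSD and from 100.4 to 126.0 (median 113.2) in controls. In all, 9 of the 10 LSD-treated rats lay below the lowest control, and 9 of the 10 controls lay above the highest LSD-treated rat, so that the groups met only at LSD 1 and control 2. The group means were 88.0 ± 6.94 RPM and 112 ± 8.19 RPM (SD, n = 10 each), a log2 fold change of -0.34 ± 0.052 (SE), or a level that dropped by 21.2%. Among the 1418 genes called lower, Dpf1 was number 4 by p-value and number 305 by size of the fold change, a modest decrease with little scatter around it. The decrease was -0.31 ± 0.048 after the span correction (the gene covers 13.7 kb), and it lay between -0.37 and -0.32 when each rat was left out in turn. Between 1361 and 2519 reads per rat stood behind it.

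Dpf2 (BAF45D) is the broadly expressed paralog of Dpf1. Its RPM ran from 48.9 to 58.1 (median 54.5) after LSD and from 55.3 to 61.0 (median 58.6) in controls. All 10 LSD-treated rats lay below the control median, and 8 lay below the lowest control. The log2 fold change was nevertheless small, at -0.10 ± 0.039, and -0.07 after the span correction. It was not called by edgeR but was called by DESeq2 (-0.10). Dpf3 (BAF45C), known from heart and muscle and from neurons, was the least counted of the 10 genes, with 25 to 88 reads per rat. Its RPM ran from 1.69 to 3.48 (median 2.80) after LSD and from 1.77 to 3.07 (median 2.02) in controls, a log2 fold change of 0.29 ± 0.14 that was not called and that was 0.17 after the correction for its span of 279 kb. Its sign was thus opposite to that of both other members of the family, and its groups overlapped over most of their range.

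Actl6b encodes BAF53B, the actin-related subunit found in neurons. Its RPM ran from 95.4 to 113.1 (median 102.9) after LSD and from 98.6 to 140.5 (median 123.6) in controls. All 10 LSD-treated rats lay below the control median and 7 controls lay above the highest LSD-treated rat, but only 1 LSD-treated rat lay below the lowest control. The groups also differed in spread, with a coefficient of variation of 4.63% in LSD-treated rats and 10.6% in controls. The log2 fold change was -0.22 ± 0.055, a level that dropped by 14.1%, and -0.20 after the span correction (16.5 kb). Control 9 had the highest value, and without it the log2 fold change was -0.19 and still called. Actl6a (BAF53A), the version that dividing progenitors use, ran from 7.96 to 10.2 RPM (median 8.71) after LSD and from 8.01 to 10.4 (median 9.31) in controls. The groups covered nearly the same range, and the log2 fold change of -0.06 ± 0.063 was not called.

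The upstream sequences of these neuronal genes and of their paralogs are shown because each pair fills the same position in the complex while edgeR called the neuronal gene lower and not its paralog (DESeq2 called Dpf2 too). They are the 250 bases before the RefSeq start of each gene in build GRCr8, 5′ to 3′ on the strand of the gene, and capitals mark CCAAT boxes on either strand. Dpf1 lies on the plus strand with its window at chr1:93733592-93733841, Dpf2 on the minus strand at chr1:212628290-212628539, Actl6b on the minus strand at chr12:24778152-24778401 and Actl6a on the plus strand at chr2:117420481-117420730.
Dpf1: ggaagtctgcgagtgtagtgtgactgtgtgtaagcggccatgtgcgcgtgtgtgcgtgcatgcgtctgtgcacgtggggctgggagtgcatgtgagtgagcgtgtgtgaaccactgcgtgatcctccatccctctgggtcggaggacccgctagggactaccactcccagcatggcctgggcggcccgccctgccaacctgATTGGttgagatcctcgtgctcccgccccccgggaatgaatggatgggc
Dpf2: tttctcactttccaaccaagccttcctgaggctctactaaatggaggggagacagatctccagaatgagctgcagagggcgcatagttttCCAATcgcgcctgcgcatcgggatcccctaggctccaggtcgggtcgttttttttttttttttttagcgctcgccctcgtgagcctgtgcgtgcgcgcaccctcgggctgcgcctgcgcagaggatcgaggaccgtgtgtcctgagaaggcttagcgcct
Actl6b: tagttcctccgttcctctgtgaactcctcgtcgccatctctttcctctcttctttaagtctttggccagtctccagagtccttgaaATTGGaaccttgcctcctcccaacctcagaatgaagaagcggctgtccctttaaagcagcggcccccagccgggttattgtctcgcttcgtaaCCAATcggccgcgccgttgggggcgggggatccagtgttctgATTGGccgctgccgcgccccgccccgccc
Actl6a: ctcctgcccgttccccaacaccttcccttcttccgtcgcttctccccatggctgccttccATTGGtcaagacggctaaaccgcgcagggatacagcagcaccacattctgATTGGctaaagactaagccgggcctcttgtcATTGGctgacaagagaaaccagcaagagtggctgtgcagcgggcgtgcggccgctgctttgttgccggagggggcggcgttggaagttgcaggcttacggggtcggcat
A CCAAT box (CCAAT, read as ATTGG on the other strand) was found once in the windows of Dpf1 and Dpf2 and 3 times in those of Actl6b and Actl6a; in Dpf1 it began 49 bases before the start. A GC box (GGGCGG on either strand), the core of SP1 sites, was found 3 times in Dpf1 and in Actl6b, once in Actl6a and 0 times in Dpf2. Smarca4 also held 3, Smarca2 and Arid1b held 2 each, and the neuronal subunits Ss18l1 and Dpf3 held 1 each. The number of GC boxes thus did not follow the neuronal subunits. A sequence was given for 9 of the 10 genes. Of these, 7 held a CCAAT box and 8 a GC box, against 34.0% and 30.5% of the 33469 windows of the same length upstream of all genes. Those windows were not limited to expressed genes or matched for GC content, which was 57.2% to 73.6% in the 9. The difference is therefore not read as a trait of these genes. An E-box (CACGTG) was present in 1 of 9, that of Dpf1, against 5.59% of all windows, and a cyclic AMP response element (TGACGTCA) in 0 of 9 against 1.59%. None of the 4 motifs contains another. These matches are descriptions of letters and not of binding.

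The ATPases and the scaffold subunits gave smaller differences. Smarca2 (BRM) and Smarca4 (BRG1) are the alternative ATPases. Smarca2 ran from 189 to 260 RPM (median 249) after LSD and from 178 to 237 (median 219) in controls, and 7 LSD-treated rats lay above the highest control. Its log2 fold change was 0.15 ± 0.061, not called, and it was 0.05 after the correction for its span of 168 kb. It was called higher with scaling by total counts (0.20) and without LSD 10 (0.19), the LSD-treated rat with the lowest value. Smarca4 ran from 206 to 286 RPM (median 267) against 209 to 303 in controls (median 272). The groups overlapped over nearly their whole range, with a log2 fold change of -0.02 ± 0.069 that was 0.02 with scaling by total counts.

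Smarcc2 (BAF170), a core scaffold subunit, ran from 494 to 583 RPM (median 523) after LSD and from 498 to 704 (median 557) in controls. The controls reached higher, while the lowest rats of both groups were alike. The log2 fold change was -0.13 ± 0.059, and -0.14 after the span correction, and neither was called. Ss18l1 (CREST), a coactivator that responds to calcium and takes the place of SS18 in neurons, was the most scattered of the genes with over 100 reads in every rat, with coefficients of variation of 17.6% and 22.8%. It ran from 31.5 to 53.3 RPM (median 45.2) after LSD and from 31.7 to 62.6 (median 50.2) in controls, a log2 fold change of -0.14 ± 0.12 that was not called. By replicate number, LSD 1 to 6 lay at 44.8 to 53.3 RPM and LSD 7 to 10 at 31.5 to 38.0. Controls 8 to 10 lay at 31.7 to 42.2, control 2 at 32.65, and the remaining controls at 48.8 to 62.6. LSD 7 to 10 also held more reads on genes than LSD 1 to 6. Likewise, control 2 and controls 8 to 10 held 18216632 to 24201351 reads, and the remaining controls 11098076 to 17121291. With the replicate number as a block the log2 fold change was -0.13 ± 0.075. The cause of this pattern was not tested. Arid1b (BAF250B), a large subunit whose loss of 1 copy causes Coffin-Siris syndrome in people, ran from 91.5 to 119 RPM (median 112.3) against 70.7 to 126.9 in controls (median 112.4). The medians were level, and the log2 fold change of -0.01 ± 0.088 became -0.12 after the correction for a span of 356 kb and 0.04 with scaling by total counts.

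**Figure D2:**
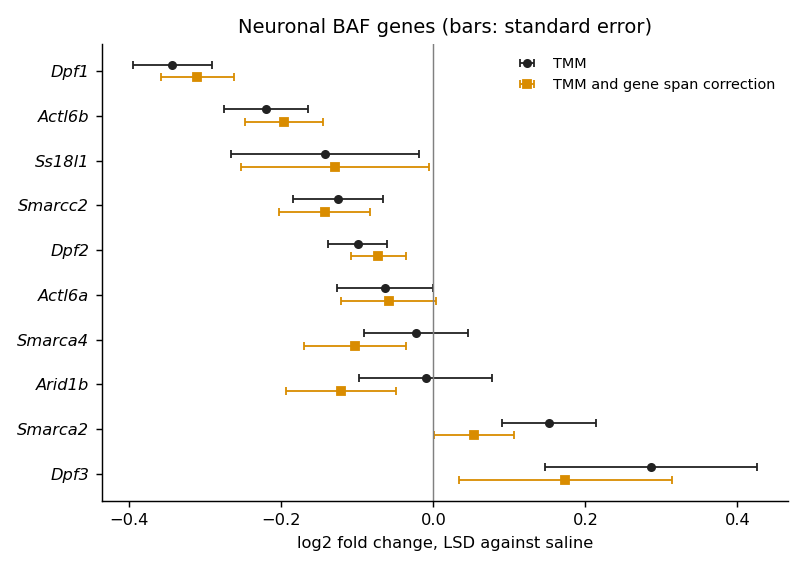
Log2 fold change of LSD against saline (x axis) with its standard error (bars) for the 10 genes, with TMM normalisation alone (black circles) and with the gene span correction added (orange squares). Dpf1 and Actl6b lie at -0.34 and -0.22 and hardly move, whereas the long genes Smarca2, Smarca4, Arid1b and Dpf3 shift to the left.

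The ratio between paralogs within a rat does not depend on the library size used for scaling. It was taken as log2 of the reads of one gene over the other, with 0.5 reads added to each, is not corrected for gene length, and so is compared between rats only. The ratio of Dpf1 to Dpf2 ran from 0.58 to 0.81 (median 0.68) after LSD and from 0.75 to 1.16 (median 0.93) in controls. Below the lowest control lay 8 LSD-treated rats, and 9 controls lay above the highest LSD-treated rat. The difference of the means was -0.24 on the log2 scale, so Dpf1 was lower relative to its own paralog as well as relative to all genes. The ratio of Actl6b to Actl6a ran from 3.35 to 3.69 (median 3.57) against 3.35 to 4.01 in controls (median 3.74), with all 10 LSD-treated rats below the control median and a difference of -0.15. The ratio of Dpf3 to Dpf2 had medians of -4.28 and -4.83, a difference of means of 0.36 in the other direction that was 0.22 with the span correction and that rests on few reads of Dpf3.

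The ratio of Smarca2 to Smarca4 ran from -0.18 to 0.00 (median -0.13) after LSD and from -0.47 to -0.12 (median -0.30) in controls. All 10 LSD-treated rats lay above the control median, and 7 controls lay below the lowest LSD-treated rat. The difference was 0.17, toward the BRM ATPase. The ratio of Smarcc2 to Smarcc1, the paralogous scaffold that predominates in progenitors, had medians of 3.41 and 3.58, with all 10 LSD-treated rats below the control median and a difference of -0.20. Ss18l1 to Ss18 (medians of 0.21 and 0.33, difference of -0.10) and Arid1b to Arid1a (-0.73 and -0.68, difference of -0.04) overlapped between the groups. With the span correction the differences were -0.24 for Dpf1 to Dpf2, -0.13 for Actl6b to Actl6a, 0.15 for Smarca2 to Smarca4, -0.14 for Smarcc2 to Smarcc1, -0.0014 for Ss18l1 to Ss18 and -0.08 for Arid1b to Arid1a. These differences share the comparison that picked the genes and were not tested.

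**Figure D3:**
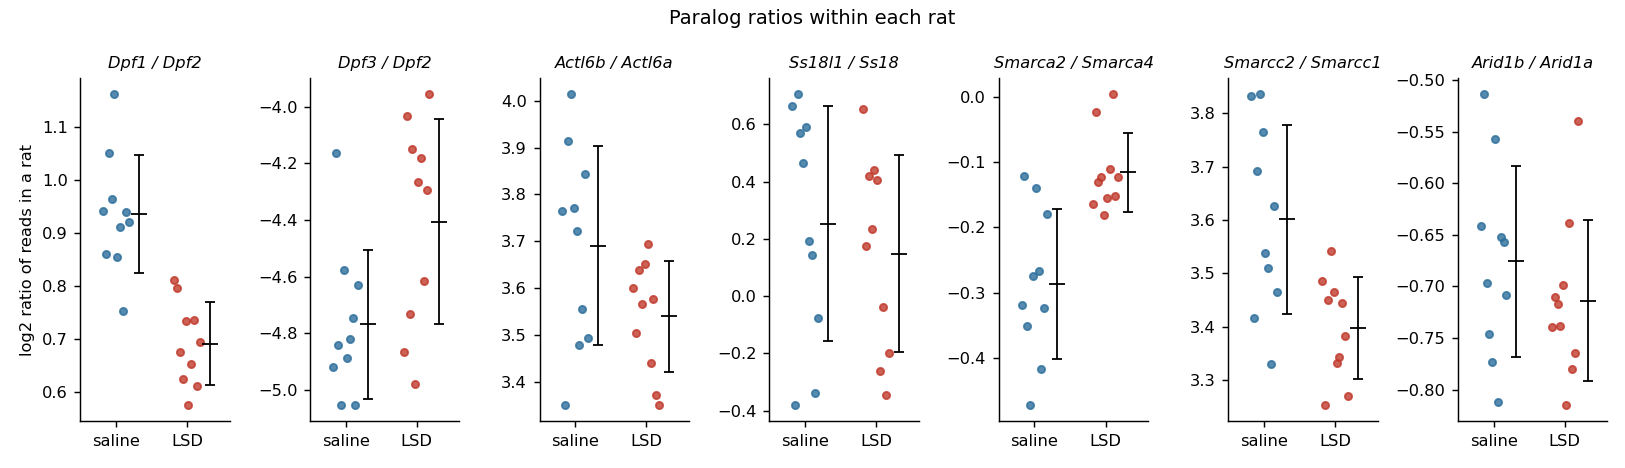
Log2 ratio of the reads of paralogous subunits within each rat (y axis, own scale in each panel) for saline (blue) and LSD (red), with mean and SD. For Dpf1 to Dpf2, 8 LSD-treated rats lie below the lowest control, and for Smarca2 to Smarca4, 7 controls lie below the lowest LSD-treated rat.

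Whether Dpf1 varies with the other 9 subunits from rat to rat was examined within each group, which the choice of the genes did not use. Over the 18 relations, Pearson's r ran from -0.22 to 0.716 in LSD-treated rats and from -0.500 to 0.744 in controls. None passed a Benjamini-Hochberg adjusted p of 0.05 by Pearson's r in 2-sided permutation tests (100000 resamples, 10 rats in each), and 1 in each group had an unadjusted p below 0.05. In controls the strongest was with Actl6b (r = 0.744, permutation p = 0.0143, adjusted p = 0.180; Spearman's rho = 0.867, permutation p = 0.00205, adjusted p = 0.0369). Without the 2 controls farthest from the median of Dpf1, r was 0.669 and rho was 0.810 (permutation p = 0.0212, adjusted p = 0.190), so the rank relation no longer passed the adjusted threshold, and Dpf3 then had the strongest relation in controls (r = -0.787, rho = -0.857, adjusted permutation p of rho = 0.190). The rank relation with Actl6b also missed the threshold with scaling by total counts (rho = 0.697, adjusted permutation p = 0.313) and with the span correction (rho = 0.709, adjusted permutation p = 0.118), where rho of Smarca2 was higher (0.758, adjusted permutation p = 0.118). In LSD-treated rats the same pair gave r = 0.179 (permutation p = 0.617) and, without the 2 farthest rats, -0.581 (permutation p = 0.132). The strongest relation of Dpf1 in LSD-treated rats was with Dpf2 (r = 0.716, permutation p = 0.0200, adjusted p = 0.180; rho = 0.661, permutation p = 0.0442, adjusted p = 0.398), and r was 0.644 without the 2 farthest rats. With the span correction, 4 relations in controls had an unadjusted permutation p below 0.05 by Pearson's r, and 1 in LSD-treated rats. Those in controls were with Smarca4 (r = 0.68), Actl6b (0.68), Smarca2 (0.64) and Smarcc2 (0.64). None passed the adjusted threshold (smallest adjusted permutation p = 0.178). The difference between the groups in these relations was not tested.

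**Figure D4:**
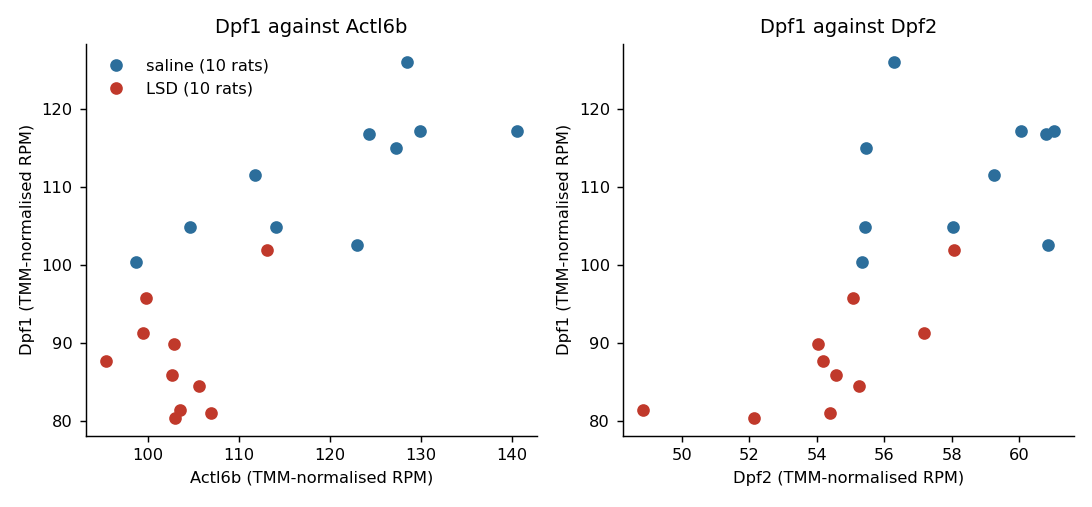
Dpf1 (y axis) against Actl6b (left) and Dpf2 (right), each in normalised RPM, for 10 saline (blue) and 10 LSD (red) rats. With Actl6b, r is 0.744 in controls and 0.179 in LSD-treated rats; with Dpf2 it is 0.183 and 0.716. None of these passed the adjusted threshold by Pearson's r.

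Over all 20 rats, with each group centred on its own mean, the subunits most like Dpf1 were Actl6b (r = 0.523), Dpf2 (0.473) and Ss18l1 (0.460), and Dpf3 was the least like it (-0.32). After the span correction the order changed, to Ss18l1 (0.479), Smarca4 (0.478), Smarcc2 (0.446), Actl6b (0.444), Arid1b (0.442), Dpf2 (0.394) and Smarca2 (0.375). These correlations are descriptions over rats that share the depth and span differences given above. Actl6b stood at percentile 92.4 among the 16604 other genes, so many genes outside the complex followed Dpf1 more closely. The 5 closest were LOC102557195 (0.834), Fabp3 (0.821), a fatty acid binding protein, Pcgf2 (0.816), a Polycomb subunit, Itm2c (0.811), a membrane protein, and Rac3 (0.809), a small GTPase of neurons. Among the 45 pairs of the 10 genes the median r was 0.198, with 29 positive. The highest was between Smarca4 and Arid1b (0.864) and the lowest between Actl6a and Ss18l1 (-0.63). Smarca4, Ss18l1 and Arid1b were each lower in LSD 7 to 10 than in LSD 1 to 6. Centring by group left that pattern in place.

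The other subunits of the SWI/SNF complexes gave the setting for these values. Of 20 such genes, 19 were tested and Smarcb1 was listed at 0 reads in all 20 rats. The annotation used for counting is not given, so this 0 is not read as a lack of expression. One was called higher and 0 lower by edgeR, against 6.48% and 8.54% of all genes tested (DESeq2 gave 2 and 0 for these subunits). At an unadjusted p below 0.05, 6 of the 19 had negative and 4 positive fold changes (16.4% and 14.4% of all genes tested). In all, 10 of the 19 had negative fold changes, with a median of -0.01. The one called higher was Pbrm1 (BAF180), which defines the PBAF form of the complex. Its RPM ran from 45.7 to 55.1 (median 50.3) after LSD and from 31.4 to 54.3 (median 43.2) in controls, a log2 fold change of 0.26 ± 0.070 (edgeR adjusted p = 0.0166). With the span correction it stood at 0.19 (adjusted p = 0.0378 in edgeR). The positive subunits at an unadjusted p below 0.05 were Pbrm1, Arid2 (0.18), Brd7 (0.17) and Phf10 (0.16). The 6 negative ones were Smarcd1 (-0.13), Bcl7b (-0.14), Bcl7c (-0.16), Bcl11a, Bcl11b and Gltscr1. Without the span correction their edgeR adjusted p ran from 0.0943 to 0.113. Arid2, Brd7 and Phf10 were called neither without the span correction (edgeR adjusted p = 0.0591, 0.113 and 0.113) nor with it (0.221, 0.161 and 0.0933). The paralogs of the members were not called: Ss18 had a log2 fold change of -0.02 ± 0.050, Smarcc1 of 0.08 ± 0.044 and Arid1a of 0.02 ± 0.104 (adjusted p = 0.793, 0.230 and 0.906 by edgeR's quasi-likelihood test).

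The span correction changed which of these subunits were called. With it, 3 were called lower, namely Bcl11a (-0.21, edgeR adjusted p = 0.0232) and Bcl11b (-0.29, adjusted p = 0.0354), zinc finger subunits of cortical neurons also known as CTIP1 and CTIP2, and Gltscr1 (-0.31, adjusted p = 0.0389), which defines the GBAF form. These 3 were named after their values were seen. Without the correction their log2 fold changes were -0.12, -0.21 and -0.23 (adjusted p = 0.101, 0.109 and 0.0943). Leaving out control 2 gave 4 subunits called lower and 2 called higher, leaving out LSD 1 gave 2 called lower, and leaving out control 6, 9 or 10 gave 1.

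**Figure D5:**
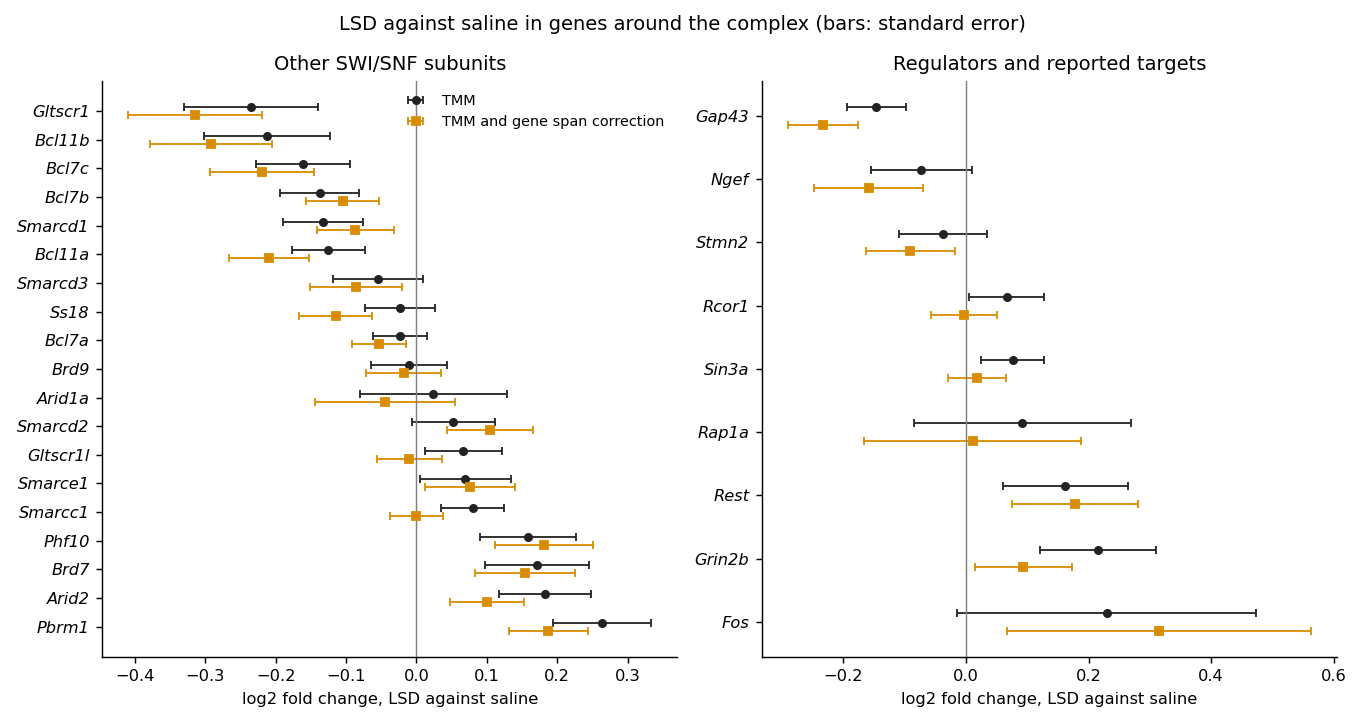
Log2 fold change of LSD against saline (x axis) with its standard error (bars) for 19 other SWI/SNF subunits (left) and 9 regulators and reported targets of the complex (right), with TMM normalisation (black) and with the gene span correction (orange). The values of the other subunits lie on both sides of 0, with Pbrm1 at 0.26 and Gltscr1 at -0.23 as the extremes.

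Beside the subunits, 9 regulators and reported targets were tested. Over all genes tested, edgeR called 8.54% lower and 6.48% higher. Rest, the repressor that holds back neuronal genes in progenitors and whose microRNA targets take part in the switch from ACTL6A to ACTL6B, was counted at 84 to 237 reads per rat. Its RPM ran from 6.92 to 9.16 (median 8.11) after LSD and from 4.68 to 9.11 (median 7.34) in controls, a log2 fold change of 0.16 ± 0.10 that was not called (edgeR adjusted p = 0.290). Gap43, a growth cone protein reported to depend on neuronal BAF, was the 1 gene called lower, and 0 were called higher by edgeR or DESeq2 (1 at an unadjusted p below 0.05). It ran from 333 to 400 RPM (median 376) after LSD and from 359 to 454 (median 410) in controls, a log2 fold change of -0.15 ± 0.048 (edgeR adjusted p = 0.0438). The call was close to the threshold: it was lost in 15 of the 20 sets that leave out 1 rat, and with the span correction Gap43 stood at -0.23 (adjusted p = 0.0160). The other 7, which were Rcor1, Sin3a, Ngef, Stmn2, Rap1a, Fos and Grin2b, had log2 fold changes between -0.07 and 0.23.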

How the data were processed

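Upstream, the authors used TrimGalore for trimming, Hisat2 for alignment to rat build rn6 and HTSeq-count for counts per gene. Tool versions, annotation and strand setting are not given in the sources used here. They deposited whole-number read counts per gene, not normalised, for 20 rats with 1 library each. A further 5 rows that name no gene held 25.5% to 29.0% of the counts of a library and were left out, leaving 31038 genes.

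Genes that reached 5 reads in no fewer than 10 rats were tested with edgeR 4.0.16 (R 4.3.3; TMM normalisation, quasi-likelihood F test, Benjamini-Hochberg adjustment, called at an adjusted p of 0.05). RPM values are edgeR's counts per library size after TMM scaling, and correlations used log2(RPM + 1). The gene span correction added centred offsets per rat, smoothed over 50 bins of genes by genomic span from a RefSeq table of build GRCr8, which is not the authors' build and was used for span and promoter sequence only. Span was available for 89.9% of the genes tested. The alternatives were scaling by total counts or by median-ratio size factors, DESeq2 1.42.0, no filter, the replicate number as a block, the span correction with and without the block, thinning to 11098076 reads, and each rat left out. The scripts were tested on simulated data.

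Members and gene lists were chosen with earlier results of these data known. Genes named were the 10 members, every called gene of the lists of other subunits and of regulators, Rest and the paralogs of members, and the 5 genes most correlated with Dpf1. Arid2, Brd7, Phf10, Smarcd1, Bcl7b, Bcl7c and Gltscr1l were named after their values were seen. So were the genes called only with the span correction, the marker genes, the uncalled regulators and the motifs. The labels name no processing batch, so no named batch could be examined. Depth and the level of Ss18l1 nevertheless differed between low and high replicate numbers in LSD-treated rats. In controls, too, the rats with lower Ss18l1 held more reads. The p-values measure the spread between these rats. Paralogous genes can share reads, and how the counting treated such reads is not given in the sources used here.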

Additional observations from a re-analysis of the deposited data

Results flagged for a closer look

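In 20 groups of 10 rats (10 genes in each treatment group), 2 values lay far from the rest by the gap to the nearest rat relative to the range of the group, and chance gives about 1 in 20 groups. Dpf3 was at 3.07 RPM in control 2, against 2.31 in the next control, a gap of 0.582 of the range. Without that rat its log2 fold change was 0.37 and still not called. Smarca4 was at 206.3 RPM in LSD 10, against 243.8 in the next LSD-treated rat, a gap of 0.468 of the range. LSD 10 also had the lowest Smarca2 and Arid1b of its group, and without it the log2 fold change of Smarca4 was 0.01.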

How the results depend on the processing

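Dpf1 and Actl6b kept their direction and their call under every alternative run, the 20 sets that leave out 1 rat included. The genes were picked on this comparison and the runs share the same rats, so this is a description and not a test. The log2 fold change of Actl6b lay between -0.25 and -0.19 over those sets, and the number of members called lower was 2 in each. It was 3 with DESeq2 (Dpf2 added) and with the span correction and block together (Smarcc2 added).

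Over all genes, leaving out 1 rat gave 663 to 1669 genes called higher and 957 to 1907 called lower. The numbers moved most without LSD 8 (663 higher), control 4 (705 higher, 957 lower) and control 2 (1669 higher, 1907 lower). The span correction gave 568 genes called higher, scaling by total counts 858 called lower, and no filter 836 called lower. Members called higher ran from 0 to 1 over the sets that leave out 1 rat. With total counts 1 member, 2 other subunits and 1 regulator were called higher and 0 regulators lower. Other subunits called higher were also 2 with DESeq2, with the replicate block and with the span correction and block together, and they ran from 1 to 2 with 1 rat left out (2 without control 2, 7 or 10). Other subunits called lower were 3 with the span correction, alone or with the block, 1 after thinning, and 0 to 4 with 1 rat left out. Regulators called lower were 0 without the filter and with the replicate block, and 0 to 1 with 1 rat left out.

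Signs turned in genes whose fold changes lay near 0. Smarca4 was 0.025 with total counts and -0.057 to 0.014 with 1 rat left out. Arid1b was 0.038 with total counts, 0.0060 without the filter, 0.0027 with the replicate block and -0.065 to 0.020 with 1 rat left out. Correlations with Dpf1 turned with total counts in LSD-treated rats for Dpf3 (0.0814), Actl6b (-0.0289), Smarca2 (-0.0786), Smarca4 (-0.0802) and Smarcc2 (-0.149), and in controls for Dpf2 (-0.180), Smarca2 (-0.112) and Arid1b (-0.222). The correlation with Dpf2 in controls was -0.0437 after the span correction. Without the 2 rats farthest from the median they turned in LSD-treated rats for Actl6a (-0.173), Actl6b (-0.581), Smarca2 (-0.206), Smarca4 (-0.0619) and Smarcc2 (-0.195), and in controls for Smarca2 (-0.201) and Arid1b (-0.140). The cause of these changes was not tested.

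Equal replicate numbers were not taken to pair the rats, since nothing in the labels ties them and only 6 of 10 same-numbered pairs correlated above 0.1. Their deviations correlated at -0.26 to 0.467 (mean 0.145, against -0.016 for other numbers), and 1 LSD-treated rat and 2 controls correlated best with their own number. With the replicate block 1355 genes were called higher and 1606 lower, Dpf1 was at -0.34, Actl6b at -0.21, and 2 members were called lower. The markers Cldn5 (-0.18), Rbfox3 (-0.18) and Slc17a7 (-0.17) were then also called lower and Rgs5 (0.27) higher. Dpf3 rests on 25 to 88 reads per rat.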
